A study of Mus musculus with 6 samples.

Results

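Complex I, the NADH dehydrogenase at the head of the mitochondrial respiratory chain, was followed through the transcripts of its nuclear-encoded subunits and of the Ndufaf assembly factors that build it. The genes were taken by their symbols alone, as the rows of the deposited table named Nduf with a subunit letter and number or Ndufaf with a number. Ndufa4 and Ndufa4l2 were left out, since Ndufa4 is a subunit of cytochrome c oxidase. This gave 44 of the 11768 genes listed, 36 subunits and 8 assembly factors.

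The libraries came from total RNA of mouse quadriceps muscle after ribosomal RNA depletion. The Control f/f mice carry the floxed gene for Drp1, the GTPase that divides mitochondria, and the mDrp1HET mice, also named Drp1-KD, are heterozygous for a muscle-specific knockout of it. All were fed normal chow. The sample titles carry the letters mck, but the labels used here do not spell out the driver of the knockout. The labels also do not give the animals' age or say that each library is a separate animal. A p-value here therefore speaks of the spread among these libraries, which may be technical.

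Complex I takes electrons from NADH, passes them to ubiquinone and pumps protons across the inner membrane. Its peripheral arm holds an N module, where NADH is oxidised, and a Q module, where ubiquinone is reduced, and its membrane arm holds the pumps. The core subunits do the catalysis, the accessory subunits surround and stabilise them, and assembly factors join the modules without staying in the finished enzyme. Skeletal muscle fibres rich in mitochondria, such as slow fibres, hold much of it. The core subunits made from mitochondrial DNA were not analysed here (0 rows of the table carried their names).

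The deposited columns held 5 separate libraries. Control replicate 1 and mDrp1HET replicate 3 hold one library: the former had exactly 2 times the reads of the latter in 11334 of 11768 genes, so their difference was below sampling noise and both counted as 1 sample. Its values are given below as those of the shared library, and the comparison without both columns, 2 Control against 2 mDrp1HET libraries, is called the 4-library comparison. Recovered reads ranged from 10394761 to 64728022 per column. Dnm1l, the gene of Drp1, had levels of 6.95 and 6.87 log2 CPM in Control replicates 2 and 3, of 7.30 and 6.73 in mDrp1HET replicates 1 and 2 and of 6.69 in the shared library. Its 4-library log2 fold change was 0.11 (95% interval -0.40 to 0.62), so a lower level in mDrp1HET was not detectable here, and directions below are those of the libraries so labelled. The genes listed as fast fibre markers, Myh4, Pvalb and others, were all present (10 of 10). They summed to 179804 and 182171 CPM in Control replicates 2 and 3, to 147662 and 143110 in mDrp1HET replicates 1 and 2 and to 193731 in the shared library. Of the 10, 5 had higher and 5 lower means in mDrp1HET, and 0 passed the test. Myh4 and Myh1 had 4-library log2 fold changes of -0.89 and -1.04, and Pvalb and Mylpf had 0.63 and 0.56. The 4 slow fibre markers measured summed to 579 CPM in mDrp1HET replicate 1, to 103 in Control replicate 2 and to between 40.4 and 51.0 in the other libraries.

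No complex I transcript passed the test between the labels, and the members' median difference lay close to that of all genes. Of the 44 members, 0 passed the threshold in the 4-library comparison (limma, Benjamini-Hochberg adjusted p under 0.05 over all genes), in which 22 genes (0.187%) were called, 0.144% of all genes as higher and 0.0425% as lower. Without adjustment 8 members had p under 0.05, beside 16.6% of all genes, and all 8 had higher means in mDrp1HET. That is 18.2% of the members, beside 13.3% of all genes in that direction, and 0 members had p under 0.05 in the lower direction, beside 3.26% of all genes. This count rests on single libraries. It was 10 higher and 2 lower without Control replicate 2, 1 higher and 5 lower without Control replicate 3, 6 higher and 9 lower without mDrp1HET replicate 1, and 17 higher and 0 lower without mDrp1HET replicate 2. The members' median log2 fold change was 0.19, beside 0.20 for all genes, and 20 of 44 lay above the median of all genes. With all 6 columns as labelled, 0 members and 0 genes (0%) were called, the members' median was 0.13 beside 0.13 for all genes, and 1 member had an unadjusted p under 0.05. Of all genes 3.9% had one, 3.04% as higher and 0.858% as lower. With array weights the labelled comparison had 17 such members, 10 higher and 7 lower, among 3935 genes. Without mDrp1HET replicate 3, which leaves the shared library as Control, it had 12, all higher, among 2841 genes. Without Control replicate 1, which leaves that library as mDrp1HET, it had 0 among 449 genes. In each of these settings 0 members were called. A library that sits on both sides shrinks the labelled differences. Tested with limma, voom on recovered reads also called 0 members in either comparison.

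Libraries of one label differed in nearly all members at once. Control replicate 2 exceeded Control replicate 3 for 43 of 44 members (97.7%, beside 74.8% of all genes), by a median of 0.57 log2 CPM against 0.19 for all genes. The exception was Ndufaf8. Likewise mDrp1HET replicate 1 exceeded mDrp1HET replicate 2 for 43 of 44 members (97.7%, beside 71.6% of all genes), by a median of 0.56 against 0.22, and the exception was Ndufa2. Between the labels, mDrp1HET replicate 1 lay above Control replicate 3 for 44 of 44 members, by a median of 0.77. By contrast mDrp1HET replicate 2 lay above Control replicate 2 for only 13 of 44, with a median difference of -0.45. These shares describe 44 genes read in the same libraries, which are not replicates of a condition.

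**Figure D1:**
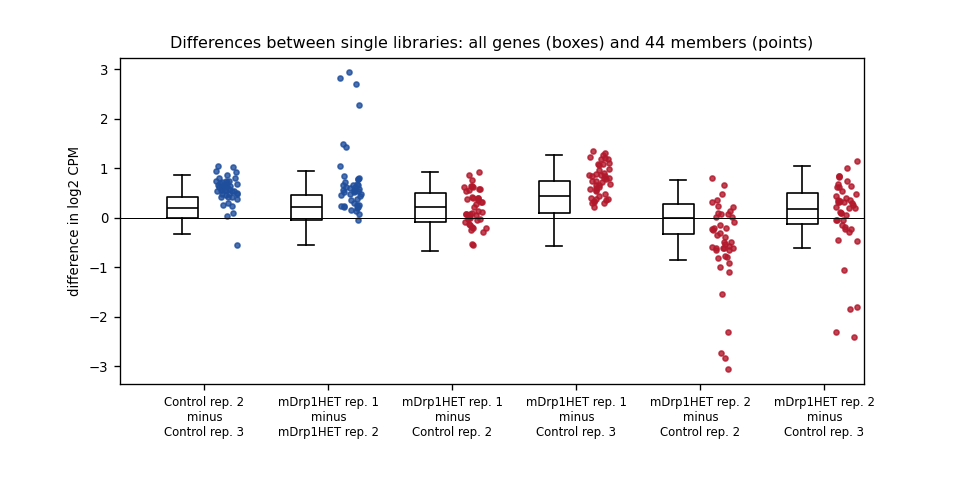
Differences in log2 CPM between single libraries, as boxes for all 11768 genes (median, quartiles, whiskers from the 5th to the 95th percentile) and points for the 44 members, blue within a label and red between labels. Nearly all points of both within-label pairs lie above 0, with medians of 0.57 and 0.56.

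In complexes III and IV and ATP synthase, too, Control replicate 2 lay above Control replicate 3 and mDrp1HET replicate 1 above mDrp1HET replicate 2. Relative to each gene's mean over the 5 libraries and to the median of all genes, complex I members had medians of 0.23 and -0.19 in Control replicates 2 and 3, 0.16 and -0.13 in mDrp1HET replicates 1 and 2, and -0.03 in the shared library. For the 8 genes of complex III measured these medians were 0.25, -0.21, 0.08, -0.17 and -0.01, in that order. For the 13 genes of complex IV they were 0.23, -0.30, 0.23, -0.02 and -0.11, and for the 15 of ATP synthase 0.32, -0.18, 0.00, -0.37 and 0.10. The full order of the 5 libraries was that of complex I in complex III and differed in complex IV and ATP synthase. Slow fibre markers, 4 of 7 measured, had medians of 0.49, -1.91, 3.85, -0.90 and -1.40, so that they too were higher in Control replicate 2 than 3 and in mDrp1HET replicate 1 than 2. This was not particular to them. Endothelial markers (0.34, -0.06, -0.10 and -0.31 in these 4 libraries), adipocyte markers (-0.09, -0.86, 0.33 and 0.09) and the other complex I assembly factors had it as well. Fast fibre, fibro-adipogenic progenitor and macrophage markers did not have it in both labels. Myh7, the slow myosin heavy chain, had levels of 3.56 and 1.31 log2 CPM in Control replicates 2 and 3, of 7.34 and 2.18 in mDrp1HET replicates 1 and 2 and of 1.85 in the shared library. The part of fibre type in the members' values was not tested.

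Levels set per kilobase of transcript separated subunits from assembly factors. Of the 36 subunits, 34 had a higher mean CPM per kb in Control replicates 2 and 3 than any Ndufaf factor. The 8 factors had a median of 10.3 CPM per kb (range 3.10 to 18.4) and the subunits one of 87.3. Core subunits lay at a median of 107 CPM per kb, and Ndufs3 was the lowest of them at 53.4. The highest member was Ndufb9, a distal membrane arm subunit, with a mean of 392 CPM per kb over Control replicates 2 and 3. Ndufb10 (306 and 182 in Control replicates 2 and 3) had values that overlap those of Ndufs6 (275 and 185). The subunits below the highest factor were Ndufa8 (12.2 and 7.76) and Ndufab1 (3.76 and 1.85). The length is that of 1 principal GENCODE transcript per gene, and for Ndufab1 it is 3479 bases for a coding length of 471.

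**Figure D2:**
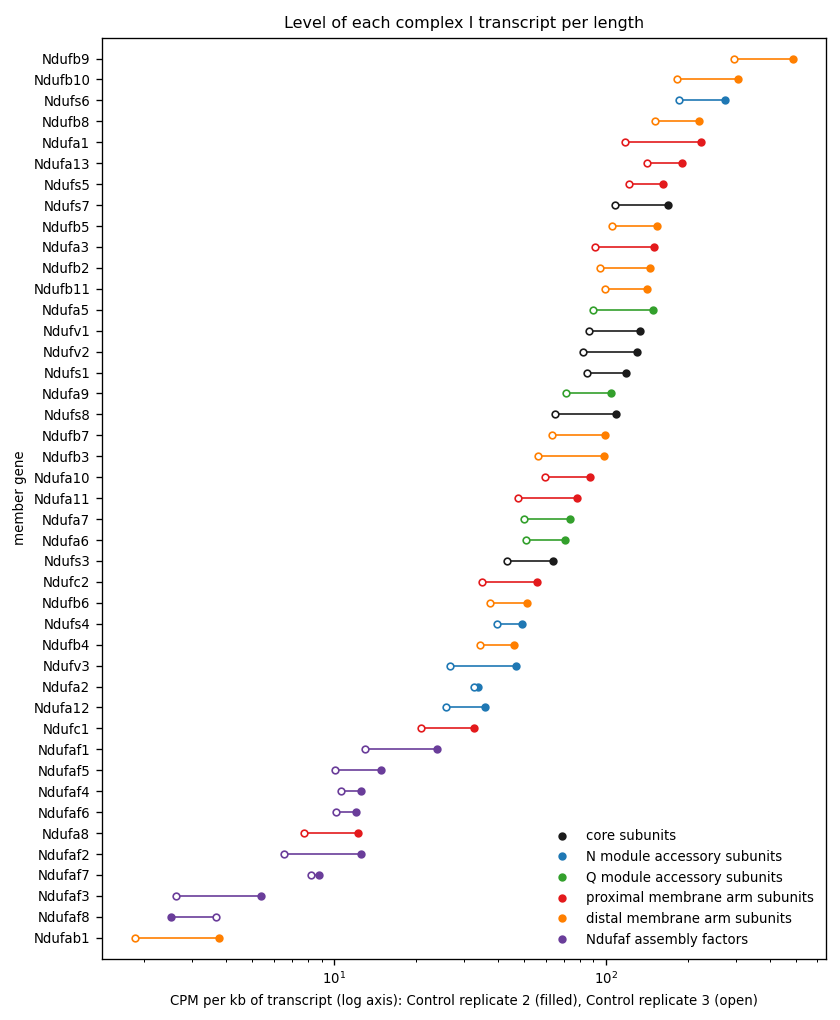
CPM per kilobase of transcript, on a log axis, for 43 of the 44 members in Control replicate 2 (filled) and Control replicate 3 (open), coloured by the part of the enzyme. Ndufb9 leads with a mean of 392, and the 8 assembly factors have means of at most 18.4.

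Of the 7 nuclear core subunits, which carry the flavin and the iron-sulfur clusters or form the ubiquinone site, 0 passed the test and 0 had an unadjusted p under 0.05 (limma). Their median 4-library log2 fold change was 0.01, beside 0.20 for all genes, and 2 of 7 lay above the median of all genes. Ndufv1, which binds NADH and the flavin, had levels of 7.79 and 7.17 log2 CPM in Control replicates 2 and 3, of 7.50 and 6.70 in mDrp1HET replicates 1 and 2 and of 7.36 in the shared library. The groups overlapped, and the log2 fold change was -0.38 (95% interval -1.02 to 0.25, limma adjusted p = 0.524). Ndufv2, its iron-sulfur partner in the N module, stood at 7.79 and 7.13 in Control, at 8.20 and 7.82 in mDrp1HET and at 7.37 in the shared library. Both mDrp1HET values lay above both Control values, with 0.02 log2 between the nearest (log2 fold change 0.55, SE 0.25, limma adjusted p = 0.308).

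Ndufs1, the largest core subunit of the N module, had levels of 8.30 and 7.82 log2 CPM in Control replicates 2 and 3, of 8.26 and 7.64 in mDrp1HET replicates 1 and 2 and between these in the shared library. Each label held 1 high and 1 low library, and the 4-library log2 fold change was -0.11 (SE 0.25). Ndufs3, a core subunit of the Q module without a cluster, had one of 0.01 (95% interval -0.60 to 0.61). The cluster-bearing Ndufs7 and Ndufs8 gave 0.33 (SE 0.27) and 0.10 (SE 0.29). The interval of Ndufs3 shows the precision that 2 libraries a label give.

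**Figure D3:**
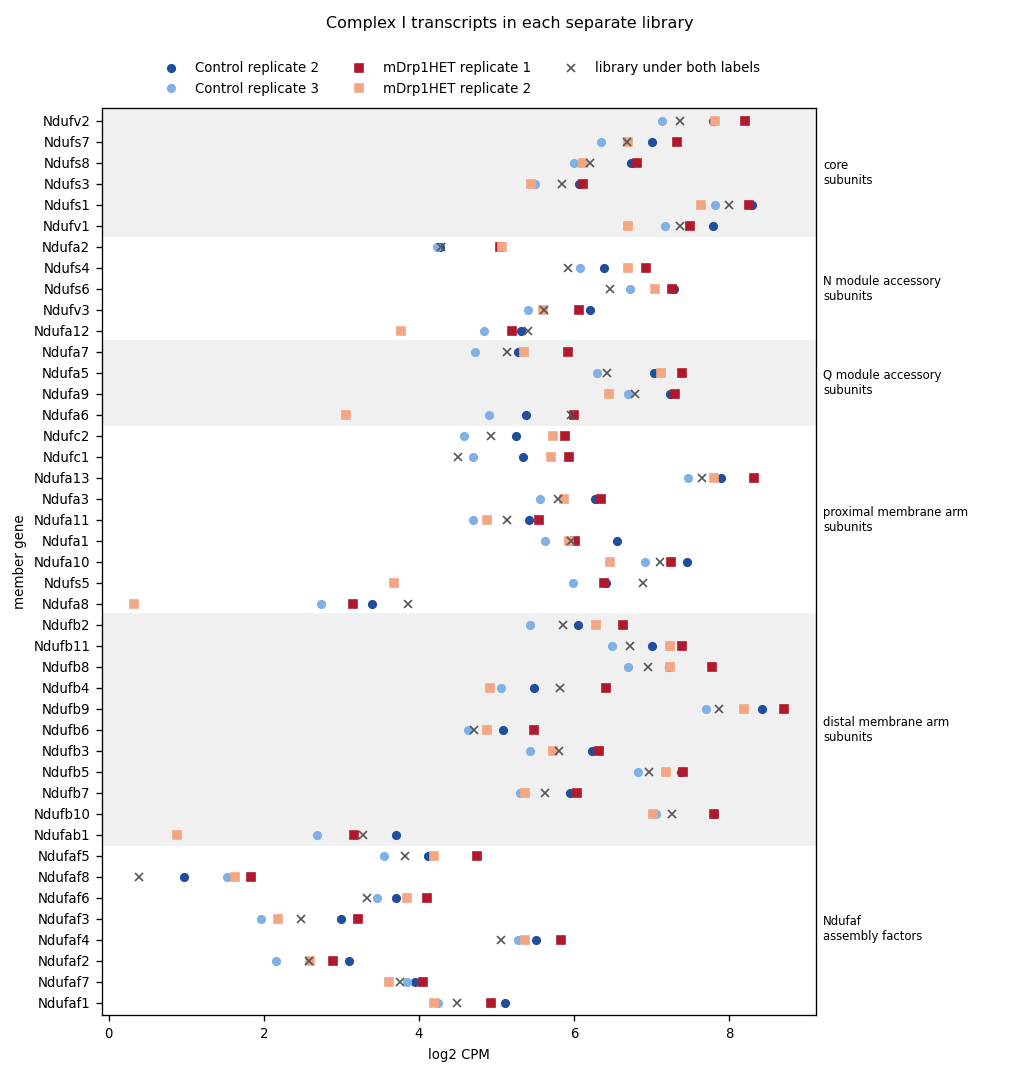
Log2 CPM of 43 of the 44 members in the 5 separate libraries, grouped by the part of the enzyme and ordered within it by 4-library fold change. In most rows Control replicate 2 and mDrp1HET replicate 1 lie to the right of the other libraries, and Ndufa8, Ndufs5, Ndufa6, Ndufab1 and Ndufa12 have 1 far lower point, that of mDrp1HET replicate 2.

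Of the accessory subunits, 8 had the unadjusted p under 0.05 mentioned above, with 4-library log2 fold changes between 0.57 and 0.89 and limma adjusted p between 0.158 and 0.282. Ndufa2, a small N module subunit (4.28 and 4.23 log2 CPM in Control replicates 2 and 3), stood at 5.04 and 5.08 in mDrp1HET replicates 1 and 2 and at 4.29 in the shared library. The groups did not overlap, the libraries within each label lay within 0.04 log2, and the shared library lay with Control. Its log2 fold change was 0.81 (SE 0.23, adjusted p = 0.158), and it was the member with an unadjusted p under 0.05 in the labelled comparison (log2 fold change 0.54, adjusted p = 0.753). Groups that did not overlap were found for 13 of 44 members in the higher direction (29.5%, beside 38.6% of all genes) and for 0 in the lower direction (11.3% of all genes).

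Ndufc1 and Ndufc2, small subunits of the membrane arm, behaved alike in level. Ndufc2 had levels of 5.25 and 4.58 log2 CPM in Control replicates 2 and 3, of 5.89 and 5.73 in mDrp1HET replicates 1 and 2 and of 4.93 in the shared library, which is 0.89 higher on average (SE 0.26, limma adjusted p = 0.166). Ndufc1 stood at 5.35 and 4.70 in Control, at 5.94 and 5.70 in mDrp1HET and at 4.51 in the shared library, which is 0.80 higher on average (SE 0.26, limma adjusted p = 0.200). In both genes the shared library lay within or below the Control values. Ndufb2 and Ndufb11, of the distal membrane arm, differed by 0.71 (SE 0.25) and 0.57 (SE 0.23) on the log2 scale, and Ndufs4, which is needed for a stable N module, by 0.58 (SE 0.22). For Ndufs4 the shared library, at 5.92, lay below the other 4 libraries, whose lowest value was 6.07. Exons of Ndufa2, Ndufb2 and Ndufb11 overlap genes on the other strand (Tmco6, Braf and Rbm10). So do exons of further members, among them Ndufs1 (Eef1b2), Ndufs3 (Kbtbd4) and Ndufaf3 (Impdh2). Whether reads were counted by strand is not given in the sources used here.

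**Figure D4:**
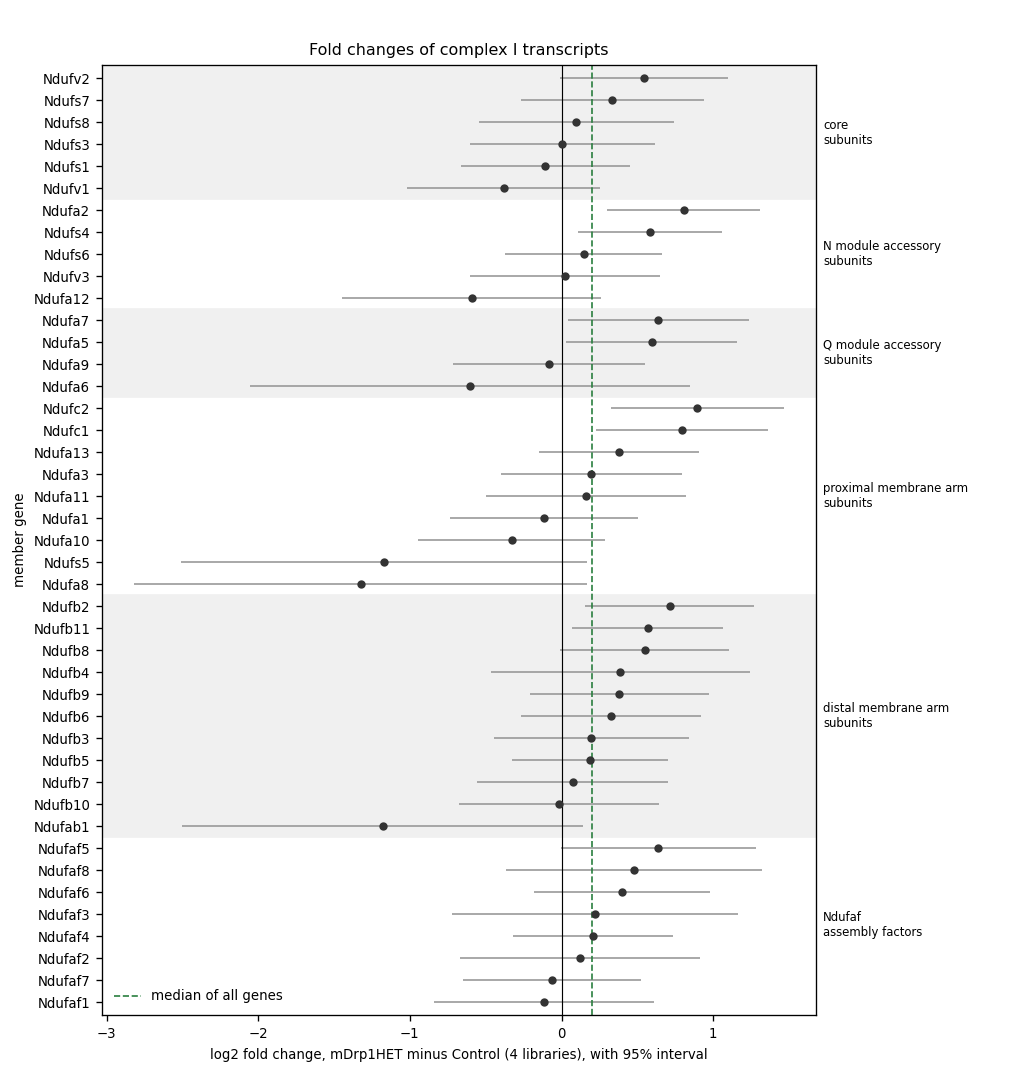
Log2 fold change of mDrp1HET against Control over 4 libraries for 43 of the 44 members (points) with its 95% interval (bars), beside the median of all genes at 0.20 (dashed line). The intervals of 8 members lie above 0, those of the others include it, and the widest belong to Ndufa6, Ndufa8, Ndufab1 and Ndufs5.

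A further 5 members had negative fold changes that came from 1 library. Ndufs5 and Ndufa8, subunits on the intermembrane side of the proximal membrane arm, Ndufa6 of the Q module, Ndufab1, the acyl carrier protein, and Ndufa12 of the N module each lay more than 1 log2 lower in mDrp1HET replicate 2 than in any other library. This was so for 5 of 44 members (11.4%), beside 100 of 11768 genes (0.85%), and for 0 members in any other library. That library had the fewest recovered reads (10394761), and no gene listed had fewer than 11 reads in it. Genes of low level could not lie so far below the other libraries and stay listed, so the share of all genes is not a like background. Ndufa8 and Ndufab1 lay near that floor, with 13 and 19 reads in mDrp1HET replicate 2. Ndufa8 had levels of 3.39 and 2.74 log2 CPM in Control replicates 2 and 3, of 3.15 and 0.33 in mDrp1HET replicates 1 and 2 and of 3.86 in the shared library. Ndufab1 stood at 3.71, 2.69, 3.16, 0.88 and 3.28 in the same order, and Ndufa6 at 5.38, 4.90, 6.01, 3.07 and 5.96. The other mDrp1HET library lay among or above the Control libraries for all 5 genes. In the 4-library fit Ndufa8, Ndufab1 and Ndufs5 had log2 differences of -1.33 (SE 0.68), -1.18 (SE 0.60) and -1.17 (SE 0.61). The adjusted p values were 0.349, 0.347 and 0.355, and those of Ndufa12 and Ndufa6 were 0.458 and 0.672. Without mDrp1HET replicate 2 the fold changes of Ndufa8, Ndufs5 and Ndufa12 were 0.083, 0.18 and 0.12. Without mDrp1HET replicate 1 all 5 passed, with a range of -2.73 for Ndufa8 to -1.31 for Ndufa12 (adjusted p between 9.11e-06 and 0.0135), which rests on mDrp1HET replicate 2 alone in its group. Ndufa10, the remaining member of the 6 with the smallest p in the lower direction, had a log2 fold change of -0.33 (SE 0.28).

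Ndufs5 is shown with its processed pseudogene BC002163, because their reads divided differently between libraries. The first 300 coding bases of Ndufs5 (gene on chromosome 4, 123712710 to 123718186) and the matching bases of the pseudogene (chromosome 16, 42955631 to 42955949, build GRCm38) are printed 5′ to 3′ from GENCODE M21 transcripts. Capitals mark the 2 differing bases of the 319 that align, T81C and A105G, counted from 1 at the first coding base with the base of Ndufs5 first.
Ndufs5: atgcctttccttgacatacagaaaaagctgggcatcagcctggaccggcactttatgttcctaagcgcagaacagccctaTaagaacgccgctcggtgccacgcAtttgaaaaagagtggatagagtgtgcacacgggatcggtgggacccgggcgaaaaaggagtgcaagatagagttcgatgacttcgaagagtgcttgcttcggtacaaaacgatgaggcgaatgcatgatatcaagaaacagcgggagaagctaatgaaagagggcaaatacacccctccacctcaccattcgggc
BC002163: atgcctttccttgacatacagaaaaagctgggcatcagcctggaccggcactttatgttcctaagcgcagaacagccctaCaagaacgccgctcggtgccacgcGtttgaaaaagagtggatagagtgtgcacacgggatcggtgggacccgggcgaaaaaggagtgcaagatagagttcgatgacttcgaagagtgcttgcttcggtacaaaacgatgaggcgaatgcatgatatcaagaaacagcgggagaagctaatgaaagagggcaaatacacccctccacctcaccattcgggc

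Both have rows in the table. Ndufs5 had levels of 6.41 and 5.99 log2 CPM in Control replicates 2 and 3, of 6.38 and 3.68 in mDrp1HET replicates 1 and 2 and of 6.89 in the shared library, and BC002163 at 7.01, 6.51, 7.03, 7.11 and 5.40 in that order. Of the reads on either row, 8.48% (95% Wilson interval 7.20 to 9.96%) were on Ndufs5 in mDrp1HET replicate 2 and 73.8% (73.0 to 74.7%) in the shared library. In the other libraries the share was between 39.0% and 41.1%. These intervals cover counting error only. Added together, both rows gave 213 and 155 CPM in Control replicates 2 and 3, 214 and 151 in mDrp1HET replicates 1 and 2 and 161 in the shared library. On the log2 scale the sum was 7.51 ± 0.33 in Control and 7.49 ± 0.36 in mDrp1HET (SD, n = 2 each), and the difference of -0.02 was smaller than the spread within either label. At 151 CPM the sum in mDrp1HET replicate 2 was still the lowest of all libraries. From mDrp1HET replicate 1 to 2, Ndufs5 went from 83.4 to 12.8 CPM and BC002163 from 130 to 138 CPM. BC002163 held most of these reads in Control replicates 2 and 3 and mDrp1HET replicate 1. On the log2 scale a fall in Ndufs5 would therefore be smaller in the sum than in Ndufs5 alone. Whether reads moved between the rows was not tested, and Ndufs5, counted alone, is uncertain.

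**Figure D5:**
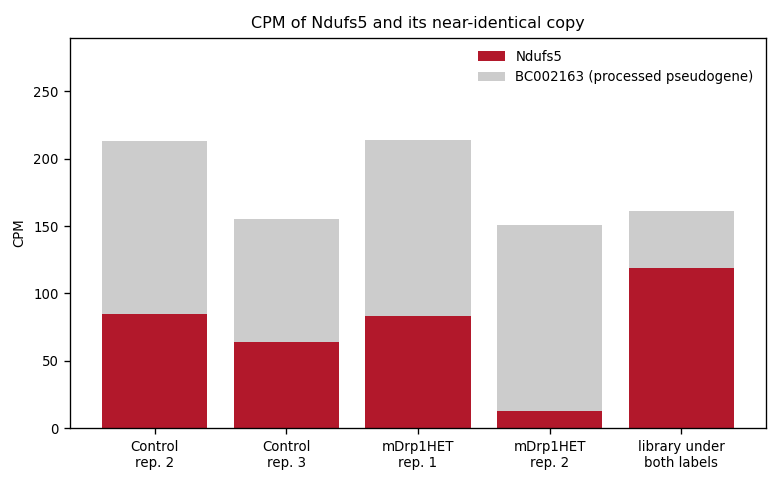
CPM of Ndufs5 (red) and of its processed pseudogene BC002163 (grey), stacked, in the 5 separate libraries. The Ndufs5 share is 8.48% in mDrp1HET replicate 2 and 73.8% in the shared library, while the sum stays between 151 and 214 CPM.

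Near-identical pseudogenes were annotated for 8 of the 44 members, by at least 95% identity over at least 200 coding bases. Of the 8, the members low in mDrp1HET replicate 2 were Ndufs5 (99.4% identity), Ndufab1 (99.8% to Gm4459 and 99.4% to Ndufab1-ps) and Ndufa12 (99.5% to Gm15920). Ndufb4, whose coding sequence matches Ndufb4c over all 390 bases, stood at 4.91 in mDrp1HET replicate 2 and at 6.41 in mDrp1HET replicate 1, between which the other libraries lay. Ndufs3 (98.6%), Ndufb11 (96.9%), Ndufb3 (96.8%) and Ndufs6 (96.5%) were not low in that library. Ndufa8 and Ndufa6 had no annotated copy by this measure. Over all genes, 3.65% of the 904 with such a copy and 0.254% of the 10219 without one were more than 1 log2 lower in mDrp1HET replicate 2 than elsewhere. In the shared library these shares were 4.54% and 0.235%, and in the other libraries at most 0.111% and 0.401%. The part of shared reads in the members' values was not tested. Leaving the 8 members out, the other 36 had a median log2 fold change of 0.20, equal to that of all genes to 2 decimals.

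The 8 Ndufaf assembly factors had 4-library log2 fold changes between -0.12 and 0.64, with a median of 0.22, and 0 passed. Ndufaf5, which hydroxylates an arginine of Ndufs7, had levels of 4.12 and 3.56 log2 CPM in Control replicates 2 and 3, of 4.75 and 4.20 in mDrp1HET replicates 1 and 2 and of 3.82 in the shared library. The groups were separated by 0.08 log2, and the log2 fold change was 0.64 (SE 0.29, adjusted p = 0.305). Its partner Ndufaf8, the factor with the lowest level, stood at 0.97, 1.53, 1.83, 1.63 and 0.39 in the same order (log2 fold change 0.48, SE 0.39). Ndufaf6, which acts early on the membrane arm, stood at 3.71, 3.45, 4.11, 3.85 and 3.32 (log2 fold change 0.40, SE 0.26).

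Among the other factors the groups overlapped. Ndufaf1, of the complex that builds the proximal membrane arm, had a log2 fold change of -0.12 (SE 0.33). Ndufaf7, a methyltransferase that acts early in assembly, had one of -0.06 (SE 0.27). Ndufaf3 and Ndufaf4, which act together on the Q module, had 0.22 (SE 0.43) and 0.21 (SE 0.24), and Ndufaf2, a relative of Ndufa12 that joins late, had 0.12 (SE 0.36). Ndufaf3 varied most, from 1.96 in Control replicate 3 to 3.22 in mDrp1HET replicate 1.

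Further assembly factors of complex I, from a list of 11 with other names, had 10 measured genes and 0 passed. Their median was 0.18, and 0 had an unadjusted p under 0.05 in either direction. Tmem126a (log2 fold change 0.45, SE 0.26) and Tmem70 (0.41, SE 0.28) had the smallest p with higher means, and Acad9 (-0.20, SE 0.25) and Ecsit, a scaffold protein (-0.02, SE 0.25), with lower means. Of the neighbouring complexes, 0 of 8 genes of complex III, 0 of 13 of complex IV and 0 of 15 of ATP synthase passed, with medians of 0.22, 0.25 and 0.00. Cox7c of complex IV also had a single low value, 2.62 in mDrp1HET replicate 2 beside 4.55 to 5.83 in the other libraries.

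Markers of other cells in the muscle piece differed by cell type, and 0 passed the test. Over all genes, 8195 of 11768 had higher means in mDrp1HET, with the median of 0.20 given above. Of 8 fibro-adipogenic progenitor markers measured, 8 had higher means in mDrp1HET, with a median log2 fold change of 0.77. Their summed levels were 1929 and 1338 CPM in Control, 2493 and 2512 CPM in mDrp1HET and 1445 CPM in the shared library, which carries both labels. Of 8 macrophage markers 7 had higher means, with a median of 0.68. Their sums were 219 and 148 CPM in Control, 298 and 273 CPM in mDrp1HET and 188 CPM in the shared library. The 6 adipocyte markers had a median of 0.79, with sums of 390 and 178 CPM in Control, 602 and 341 CPM in mDrp1HET and 560 CPM in the shared library, so that the labels overlapped. Of 7 endothelial markers 2 had higher and 5 lower means, with a median of -0.09. Their sums were 365 and 241 CPM in Control, 317 and 227 CPM in mDrp1HET and 247 CPM in the shared library. An unadjusted p under 0.05 (limma) with a higher mean was found for 4 progenitor, 4 macrophage and 3 adipocyte markers, beside 13.3% of all genes. With a lower mean it was found for 1 endothelial marker, beside 3.26% of all genes. This was Kdr, a receptor for vascular endothelial growth factor, with a log2 fold change of -0.95 (limma adjusted p = 0.205). Kdr was chosen after its values were seen. In bulk tissue, fewer cells of a type and less RNA per cell cannot be told apart, and the part of these cells in the members' values was not tested.

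Promoter windows, from 250 bases before to 50 after the gene start, were held for 39 of the 44 members (RefSeq, GRCm38.p6). They were searched on both strands for motifs of factors known to act on respiratory chain genes. The palindromic NRF1 motif, searched with 1 open position, was present in 9 of 39 members (23.1%) and in 11.9% of the 9133 listed genes with a window. AAGATGGCG, of YY1, was in 6 of 39 (15.4%, against 3.78%), CCGGAAG, of ETS factors such as GABPA, in 6 of 39 (15.4%, against 20.3%), and TNAAGGTCA, of ERR factors, in 1 of 39 (2.56%, against 0.821%). Overlaps between motifs were not removed. The windows of Ndufs4 and Ndufs6 are shown for their motifs, in capitals, and were chosen after the search. That of Ndufs4 holds the YY1 motif, and that of Ndufs6 holds the NRF1 motif and then the YY1 motif. In both, the YY1 motif begins after the gene start, by 35 bases in Ndufs4 and by 33 in Ndufs6, and so lies within the gene. Ndufa2 had the smallest p in the higher direction, but no window is shown for it. The windows of Ndufc2, next by p in that direction, and of Ndufab1, with the smallest p in the lower direction, hold none of these letters. The minus strand is printed for Ndufs4 (chr13:114388045-114388344), Ndufs6 (chr13:73328433-73328732) and Ndufab1 (chr7:122101799-122102098), and the plus strand for Ndufc2 (chr7:97399753-97400052).
Ndufs4: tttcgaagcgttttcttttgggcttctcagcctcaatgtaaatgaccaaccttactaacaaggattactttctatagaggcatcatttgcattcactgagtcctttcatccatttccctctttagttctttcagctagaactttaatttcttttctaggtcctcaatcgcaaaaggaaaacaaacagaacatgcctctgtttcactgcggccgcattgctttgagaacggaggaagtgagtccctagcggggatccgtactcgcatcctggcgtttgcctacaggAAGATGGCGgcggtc
Ndufs6: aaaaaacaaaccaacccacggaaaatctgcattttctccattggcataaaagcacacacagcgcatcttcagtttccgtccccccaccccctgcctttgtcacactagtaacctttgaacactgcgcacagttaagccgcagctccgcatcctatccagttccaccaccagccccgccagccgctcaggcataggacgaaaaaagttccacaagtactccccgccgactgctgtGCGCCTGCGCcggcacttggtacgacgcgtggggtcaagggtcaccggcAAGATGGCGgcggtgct
Ndufc2: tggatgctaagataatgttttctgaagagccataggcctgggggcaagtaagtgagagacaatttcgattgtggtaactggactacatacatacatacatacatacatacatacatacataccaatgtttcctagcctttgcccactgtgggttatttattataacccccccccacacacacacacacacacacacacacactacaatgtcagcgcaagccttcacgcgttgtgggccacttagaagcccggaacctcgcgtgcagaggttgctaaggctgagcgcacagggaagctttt
Ndufab1: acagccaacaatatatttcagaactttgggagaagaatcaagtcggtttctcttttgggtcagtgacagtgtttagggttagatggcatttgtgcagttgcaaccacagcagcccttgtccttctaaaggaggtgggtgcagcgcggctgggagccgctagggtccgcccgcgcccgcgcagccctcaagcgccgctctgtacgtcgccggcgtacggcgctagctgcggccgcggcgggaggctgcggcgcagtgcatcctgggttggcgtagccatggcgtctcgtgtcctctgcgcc

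Ndufs6, with both motifs, had levels of 7.29 and 6.72 log2 CPM in Control replicates 2 and 3, of 7.26 and 7.04 in mDrp1HET replicates 1 and 2 and of 6.47 in the shared library. Its 4-library log2 fold change was 0.15 (SE 0.24). A match describes letters only.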

How the data were processed

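The values are log2 CPM, library-scaled read numbers on a log2 scale, as deposited by the authors in 1 table of 11768 genes, per the file headers. FastQC, DESeq2 1.30.0 and build GRCm38 appear in the submitters' processing notes. For the aligner and counter, nothing is given in the sources used here. The authors' p-value per gene, per the file headers, was not used. Whole reads were recovered from the constant step in each column for 100% of values (tolerance 0.01 reads).

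Fold changes were tested two-sided with limma-trend (limma 3.58.1, R 4.3.3), Benjamini-Hochberg adjusted over all 11768 genes with a threshold of 0.05. Intervals are 95%. The test was tried on simulated data. Copies were sought with blastn 2.17.0 among GENCODE M21 pseudogenes. All 44 members had a transcript. The members and lists were chosen with earlier results of these data known. Named members are the core subunits, of which 1 is not reported here singly, the Ndufaf factors and the 6 with the smallest p per direction. Others are named for a copy, a low value or a motif, after their values were seen. Libraries ran in 2 sequencing pools, and their assignment to pools is unknown here. The counts without members that have a copy, and the sum of Ndufs5 with BC002163, were added after seeing the data. No other sample column was present (0).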

Additional observations from a re-analysis of the deposited data

How the results depend on the processing

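With 2 libraries a label, the median SE of a member's log2 fold change was 0.28. The edgeR test was not run, because the table holds log2 values. No paired analysis was possible because the labels give no replicate numbers: those used here name the samples in accession order and tie no samples together.

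In the 4-library comparison 22 genes were called, 0 with median centring, 1 with quantile normalization, 0 without the intensity trend, 6 with the trend on transcript GC content removed, 51 with voom on recovered reads, and between 77 and 325 when 1 library was left out, where the lone library of a label is assumed to vary like the others. None of these settings called a member, except that leaving out Control replicate 3 called Ndufab1, mDrp1HET replicate 1 the 5 members low in mDrp1HET replicate 2, and mDrp1HET replicate 2 Ndufb4 (log2 fold change 1.14). In the labelled comparison leaving out 1 column called between 0 and 2 genes, 0 of them members. The members' median relative to all genes lay between -0.24 and 0.19 over the leave-outs of the 4-library comparison, beside -0.01. Its shift from the main fit stayed within the spread between libraries of a label (0.26) under every setting. With 2 libraries a label, that spread comes from the same libraries. Leaving 1 out could hardly shift the median by more, so no stability is read from the leave-outs.

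All genes had a median of 0.20, which median centring took to 0.04. Signs turned with median centring for Ndufs3 (-0.16), Ndufs8 (-0.069) and Ndufaf2 (-0.045), with quantile normalization for Ndufs3 (-0.16), Ndufs8 (-0.052), Ndufaf2 (-0.11) and Ndufaf3 (-0.014), and with the GC trend removed for Ndufaf4 (-0.11). Leaving out 1 library turned the sign of these members, with ranges of Ndufs1 -0.41 to 0.20, Ndufs3 -0.33 to 0.34, Ndufs8 -0.27 to 0.47, Ndufv1 -0.78 to 0.016, Ndufaf1 -0.55 to 0.32, Ndufaf2 -0.35 to 0.59, Ndufaf3 -0.30 to 0.74, Ndufaf4 -0.026 to 0.45, Ndufaf7 -0.29 to 0.16, Ndufa8 -2.73 to 0.083, Ndufs5 -2.52 to 0.18, Ndufa12 -1.31 to 0.12 and Ndufa10 -0.72 to 0.066. Without a turn of sign, the ranges were -2.32 to -0.039 for Ndufab1, 0.0084 to 0.66 for Ndufs7, 0.22 to 0.88 for Ndufv2, 0.20 to 0.76 for Ndufaf8, 0.36 to 0.92 for Ndufaf5, 0.31 to 0.82 for Ndufb11, 0.40 to 1.02 for Ndufb2, 0.47 to 1.12 for Ndufc1 and 0.56 to 1.23 for Ndufc2. Those of Ndufa2 (0.78 to 0.83), Ndufs4 (0.43 to 0.74) and Ndufaf6 (0.27 to 0.53) were narrower. The cause was not tested.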
